A study of Mus musculus with 51 samples.

Results

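Bglap and Bglap2, the neighbouring mouse genes for osteocalcin, and Ifitm5, the gene for the osteoblast membrane protein also called BRIL, were followed through femoral bone and MC3T3-E1 cells with and without vitamin C (VitC). The members were taken by gene name, and were chosen from earlier results of these data in which they were low in bone without VitC. They are 3 of 23289 genes in the VitC femur files and 3 of 25938 genes in the Tet femur table. Peaks counted as near them had their midpoint within 30 kb of Bglap and Bglap2 or of Ifitm5.

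Osteocalcin is secreted by mature osteoblasts, the bone-forming cells, and is among the most abundant proteins of the bone matrix other than collagen. Its glutamate residues are carboxylated by a vitamin K-dependent enzyme, which lets it bind the calcium of the mineral, and part of it reaches the circulation. Ifitm5 belongs to the family of interferon-induced transmembrane proteins by sequence, but is expressed in osteoblasts and is known for a mutation that causes a form of brittle bone disease. VitC is a cofactor of collagen hydroxylases, of the TET enzymes that turn 5-methylcytosine of DNA into 5-hydroxymethylcytosine (5hmC), and of several histone demethylases.

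Femurs came from 20 week old mice in 3 groups, each with 3 RNA-seq libraries. WT mice make their own VitC. Gulo-/- mice lack the last enzyme of VitC synthesis, and received it in the water at 3.3 g/L throughout (VitC+) or up to week 15 (VitC+/-). In a second experiment, 11 week old mice carried Prrx1-Cre, which is active in limb mesenchyme, either without floxed genes (Ctrl) or with both alleles floxed of Tet1 (named Tet1 cKO), of Tet2 (named Tet2 cKO) or of both genes (named Tet1/2 cKO), again with 3 libraries each. All of these Tet groups, Ctrl included, carried the Cre, and bone cells of other origin keep the floxed genes. MC3T3-E1, a clonal pre-osteoblast line from mouse calvaria, was differentiated with VitC at 50 µg/ml (VitC+) or without it (VitC-). Per the labels these cultures ran for 28 days, whereas the methods give 7 days for the histone ChIP. Peaks of 5hmC, from sequencing of immunoprecipitated DNA, exist for MC3T3-E1 cells and for femurs of VitC+, VitC+/-, Ctrl and of Tet1/2 cKO mice. Peaks of the repressive histone marks H3K27me3 and H3K9me3 exist for MC3T3-E1 cells.

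On the reverse strand of mm10, RefSeq places Bglap at chr3:88383495-88384466, Bglap2 at chr3:88377736-88378701 and Ifitm5 at chr7:140948958-140950243. The promoters of Bglap and Ifitm5 are shown because both genes are low in the same libraries while the letters upstream of them differ. Each line gives the 250 bases before the start site from RefSeq (GRCm38.p6), 5′ to 3′ on the strand of the gene, and capitals mark the motif letters found.

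Bglap promoter, chr3:88384467-88384716, reverse strand: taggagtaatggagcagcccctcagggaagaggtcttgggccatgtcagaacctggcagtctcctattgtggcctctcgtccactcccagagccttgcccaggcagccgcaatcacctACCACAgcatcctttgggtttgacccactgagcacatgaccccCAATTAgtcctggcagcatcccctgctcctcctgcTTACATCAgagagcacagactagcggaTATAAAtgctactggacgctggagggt
Ifitm5 promoter, chr7:140950244-140950493, reverse strand: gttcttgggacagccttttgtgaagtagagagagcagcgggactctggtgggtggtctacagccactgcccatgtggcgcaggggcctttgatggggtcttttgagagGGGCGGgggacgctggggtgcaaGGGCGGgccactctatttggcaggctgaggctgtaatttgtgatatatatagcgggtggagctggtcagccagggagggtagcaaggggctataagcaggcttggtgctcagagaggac

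The motifs were searched on both strands, and no pair of matches overlapped. In the Bglap promoter the Runx core ACCACA starts at -132 from the start site, the Msx/Dlx core TAATTG lies on the other strand at -89, the osteoblast element OSE1 (TTACATCA) starts at -54 and the TATA box TATAAA at -27. None of these exact letters occurs in the Ifitm5 promoter, which holds the GC box GGGCGG at -142 and -119. Near variants were not searched, and the printed Ifitm5 letters hold the TATA-like tataag close to the start site. The E-box form CACGTG is in neither. Other E-box forms were not searched, and the printed Bglap letters hold cacatg and the Ifitm5 letters catgtg. Of 32851 promoters of the same length, 14.0% hold the Runx core, 7.17% the Msx/Dlx core and 0.965% OSE1. The TATA box TATAAA is in 12.4% of them, the GC box in 32.7% and CACGTG in 6.02%. The Bglap promoter has 4 CpG sites and the Ifitm5 promoter 6. A match of letters is a description and not a measured binding site.

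Before the values, the libraries themselves need a description. Steps in the low RPKM values gave an estimate of 7613700 reads for WT replicate 1, the shallowest, and of 31227500 to 47567000 for the other VitC libraries, while the Tet libraries held 28597536 to 49788434 reads. Gulo was at most 0.543 scaled RPKM in every library, so it does not check the genotype in bone. Tet1 averaged 410 normalized counts in Ctrl, 645 in Tet1 cKO and 448 in Tet1/2 cKO, and every library labelled Tet1 cKO (532 to 773) was above every Ctrl library (374 to 435). Tet2 averaged 2333 in Ctrl, 2096 in Tet2 cKO and 2391 in Tet1/2 cKO. A count over a whole gene does not check the loss of 1 exon in part of the cells. The mature osteoblast and osteocyte genes were expressed in all femurs, with a summed scaled RPKM of 8005 to 13930 over 16 listed genes in VitC+. The sum was 3357 to 10850.5 in VitC+/- and 1648 to 4838 in WT, so WT lay under VitC+ without overlap. Skeletal muscle genes varied within every group, from 8.69 to 485 in VitC+/- and from 32.2 to 1497 in VitC+. B-cell precursor genes summed to 85.1 to 167 in VitC+ and 15.3 to 28.0 in VitC+/-.

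Bglap was the most abundant of the members per transcript length in VitC+ and WT, but not in VitC+/-, where its scaled mean was just under that of Ifitm5. Its deposited RPKM, reads per kilobase of transcript scaled to sequencing depth, was 2711, 1164 and 1606 in the 3 VitC+ libraries. In VitC+/- it was 11.5, 8.57 and 9.13. In WT it was 1278, 153 and 467. The VitC+/- values stood far under all others, whereas WT overlapped VitC+ through 1 library. After scaling by median of ratios, the means were 2075 ± 1364 in VitC+, 9.31 ± 1.59 in VitC+/- and 647 ± 615 in WT (SD, n = 3 each), so that the VitC+ mean was 223-fold that of VitC+/-. On the log2(scaled RPKM + 0.5) scale of limma, fitted to all genes, VitC+/- lay -7.54 (SE 0.71) from VitC+ and -5.51 from WT. In this bulk tissue, fewer osteoblasts and less Bglap RNA per osteoblast cannot be told apart.

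Bglap2, which encodes a nearly identical osteocalcin, followed at a lower level. Its RPKM was 417, 175 and 264 in VitC+. Without VitC it was 3.40, 1.56 and 2.86, and in WT 93.1, 30.2 and 30.1. The 3 groups did not overlap, with VitC+ highest, WT next and VitC+/- lowest. The scaled means were 323 ± 208, 2.50 ± 0.928 and 51.5 ± 39.3 in VitC+, VitC+/- and WT (SD, n = 3 each), a ratio of 129 between VitC+ and VitC+/-. The log2 difference of VitC+/- was -6.62 (SE 0.55) from VitC+ and -3.92 from WT. Reads that both copies share can be split between them by the counting, so the ratio of the copies is uncertain.

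Ifitm5 had the smallest range of the members. Its RPKM was 49.1, 48.0 and 79.2 in VitC+ and 9.96, 5.06 and 14.8 in VitC+/-. WT libraries held 39.8, 8.36 and 17.2. All VitC+ libraries were above all VitC+/- libraries, and WT overlapped VitC+/- but not VitC+. The scaled means were 61.5 ± 14.0, 9.52 ± 4.66 and 22.1 ± 17.4 in VitC+, VitC+/- and WT (SD, n = 3 each), with VitC+ 6.46-fold above VitC+/-. The log2 difference of VitC+/- was -2.72 (SE 0.55) from VitC+ and -0.98 (SE 0.55) from WT. The latter was -0.38 without WT replicate 1, -1.57 without WT replicate 2 and -0.57 without VitC+/- replicate 2. The order of the 3 groups was thus VitC+, WT and VitC+/- for every member, with overlap between neighbours for Bglap (VitC+ and WT) and Ifitm5 (WT and VitC+/-).

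**Figure D1:**
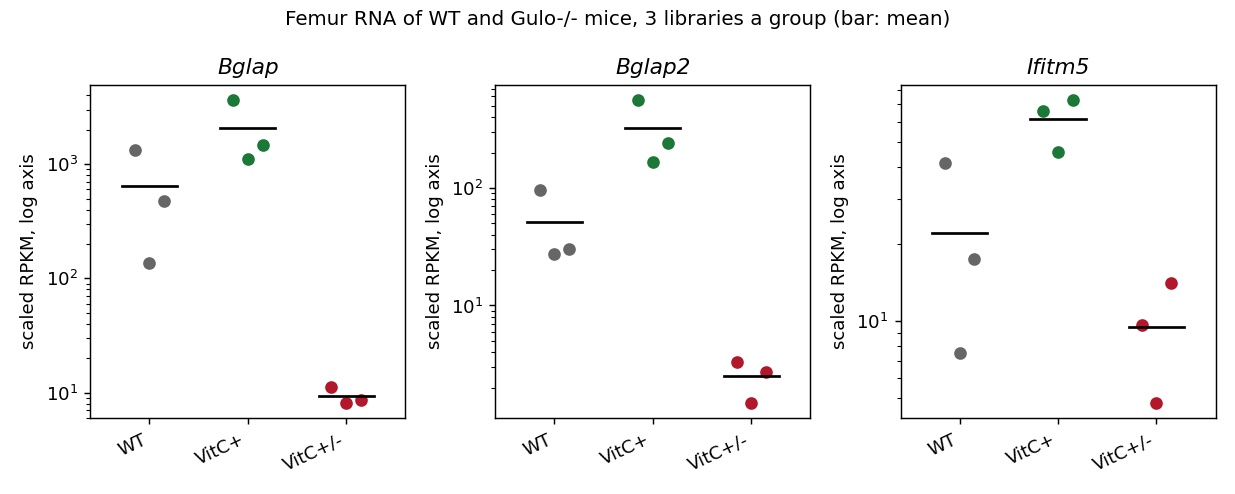
Scaled RPKM (log axis) of Bglap, Bglap2 and Ifitm5 in femurs of WT, VitC+ and VitC+/- mice, with a point for each of 3 libraries and a bar at the mean. VitC+/- means are 9.31, 2.50 and 9.52, against 2075, 323 and 61.5 in VitC+.

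These 3 contrasts were known when the members were chosen or share libraries with the one that was, so the members have no test in them. Among 12571 genes tested, Bglap and Bglap2 had the lowest and second lowest log2 difference of VitC+/- against VitC+ and Ifitm5 was number 45 from the lowest. Lower values without overlap, as in all 3 members, were found in 20.1% of the genes tested. Against WT, Bglap and Bglap2 did not overlap VitC+/- and 21.3% of genes were lower without overlap. WT was lower than VitC+ without overlap for Bglap2 and Ifitm5, with log2 differences of -2.70 and -1.74, as were 15.0% of genes. The Bglap difference was -2.04 there, with overlap. Without WT replicate 2, Bglap was at -1.19 and Ifitm5 at -1.15. In reads, which set the precision of the low values, Bglap had about 192, 128 and 208 in the VitC+/- libraries, Bglap2 56, 23 and 64, and Ifitm5 250, 113 and 506.

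Because the members differ in range, their ratios moved between groups. Bglap was 20.3 to 55.2 times Ifitm5 by RPKM in VitC+ and 18.3 to 32.1 times in WT. In VitC+/- this ratio was 0.616 to 1.69 and Ifitm5 was above Bglap in 1 of the 3 libraries, replicate 3. Bglap over Bglap2 was 6.08 to 6.65 in VitC+, 5.05 to 15.5 in WT and 3.20 to 5.48 in VitC+/-. By normalized count in the 12 Tet libraries this ratio ran only from 0.796 to 1.20, for transcripts of 479 and 473 bp. The excess of Bglap over Bglap2 in the RPKM of the VitC femurs was thus not seen in the normalized counts of the Tet femurs. These measures differ, as may their handling of reads that both copies share. No difference between the femurs is read from this.

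The members were then set against 16 other osteoblast and osteocyte genes, a list that shares no gene with them. In VitC+/- against VitC+, 7 of the 15 that could be tested fell and 1 rose, where 13.5% of all genes were called in either direction, and the list median was -1.85 against 0.01 for all genes. Smpd3, a sphingomyelinase of mineralizing cells, fell by 3.25 (limma adjusted p = 0.0166) and Phex, an osteocyte endopeptidase of phosphate control, by 2.58 (limma adjusted p = 0.00183). The Wnt inhibitor Dkk1 fell by 2.14 (limma adjusted p = 0.0126) and Pdpn, a membrane glycoprotein of early osteocytes, fell by 2.06 (limma adjusted p = 0.0303). Spp1, which encodes the matrix protein osteopontin, was the gene that rose, by 1.26 (limma adjusted p = 0.0207), and is named after its value was seen. B-cell precursor genes moved with the members, with 9 of 11 called lower and none higher, and so did neutrophil genes, with 3 of 9 called lower. Chondrocyte genes had 2 of 7 called lower and osteoclast genes 4 of 10 called higher, erythroid genes 1 of 7 and adipocyte genes 1 of 9 called higher, and muscle and endothelial genes 0 of 9 and 0 of 8. Their part in the members' values was not tested. The osteoblast count rested on single libraries, with 5, 2 and 3 genes called in all without VitC+ replicate 1, 2 or 3 and 1 without VitC+/- replicate 1, and the B-cell count was 3, 4 and 3 without VitC+ replicate 2, VitC+ replicate 3 or VitC+/- replicate 1.

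**Figure D2:**
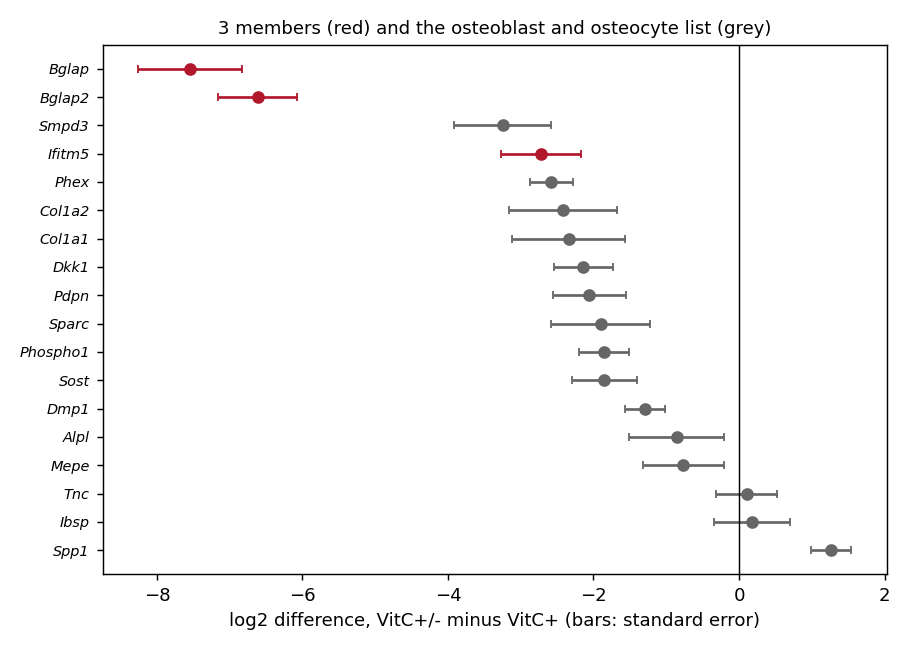
Log2 difference of VitC+/- minus VitC+ with its standard error for Bglap, Bglap2 and Ifitm5 (red) and the tested osteoblast and osteocyte genes (grey). Bglap at -7.54 and Bglap2 at -6.62 lie beyond Smpd3 at -3.25, the lowest of the list, and Ifitm5 at -2.72 lies within its range.

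The position of each member relative to the mean log2 level of the list gave a further description. Bglap was 4.45 ± 0.86 above the list mean in VitC+ and 4.03 ± 1.00 in WT, and -1.72 ± 0.67 from it in VitC+/- (SD, n = 3 each). Bglap2 was at 1.77 ± 0.85, 0.69 ± 0.48 and -3.47 ± 0.43 in the same order. Ifitm5 was at -0.45 ± 0.24, -0.57 ± 0.55 and -1.80 ± 0.03. All members were thus lower against the list in VitC+/- than in VitC+ and in WT, with no overlap in any of them. Of all genes tested, 0.517% were lower without overlap against VitC+ on this measure and 4.22% against WT, and nothing is read from this for members chosen on these libraries. WT stood near VitC+ for Bglap and Ifitm5.

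Transcription factors that bind or act on the osteocalcin promoter were mixed in VitC+/- against VitC+. Of 13 tested, 2 fell and 1 rose, with a median of -0.30. The homeobox factor Dlx3 fell by 2.17 (limma adjusted p = 0.0411), while the AP-1 member Fosl2 rose by 0.76 (limma adjusted p = 0.0331). Runx2, the master regulator of osteoblasts, had a difference of -0.69 (limma adjusted p = 0.0532) and Sp7 of -1.30 (limma adjusted p = 0.136), both named after their values were seen. In the vitamin K cycle and among Gla proteins, 1 of 9 genes fell and 1 rose. Vkorc1, which recycles vitamin K, fell by 1.26 (limma adjusted p = 0.0486), and the protease Furin rose by 1.07 (limma adjusted p = 0.00322). In the Ifitm family and Fkbp11, a partner of the Ifitm5 protein, 1 of 5 tested genes fell, which was Ifitm1 by 1.27 (limma adjusted p = 0.0151). The osteocalcin receptors Gprc6a, Gpr158 and Gpr37 were under the filter, with a summed scaled RPKM of at most 0.706 in any library. Without any 1 of the VitC+ libraries 1 transcription factor was called in all, and without VitC+/- replicate 3 the number was 5.

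Against WT the same lists took another course. Phex was the only osteoblast gene of 15 called lower in VitC+/-, by 0.92 (limma adjusted p = 0.0416), and 3 were higher, Spp1 by 2.92, Ibsp by 1.85 and Tnc by 1.52, against a background of 31.0% of genes called. Of the transcription factors, 3 of 13 rose and none fell, led by the vitamin D receptor Vdr at 1.89 (limma adjusted p = 0.000377). Of the vitamin K list, 3 of 9 rose, led by Mgp, the mineralization inhibitor matrix Gla protein, at 2.10 (limma adjusted p = 0.0168). Bglap and Bglap2 were low in VitC+/- also in this comparison, whereas the osteoblast list median was 0.04. B-cell precursor genes were called lower here in 9 of 11, neutrophil genes in 9 of 9, chondrocyte genes in 1 of 7 and the Ifitm list in 3 of 5. Osteoclast genes were called higher in 8 of 10, adipocyte genes in 7 of 9, endothelial genes in 5 of 8 and erythroid genes in 2 of 7, with 0 of 9 muscle genes called. Their part in the members' values was not tested. Without WT replicate 3 or VitC+/- replicate 1 the osteoblast genes called numbered 1, and without VitC+/- replicate 3 they numbered 2. In WT against VitC+ all 15 osteoblast genes had lower values with a median of -1.67. So did all tested osteoclast (median -1.29), adipocyte (-1.11), endothelial (-0.83) and chondrocyte genes (-1.80). Neutrophil genes were all higher, with a median of 0.84. Muscle, B-cell precursor and erythroid genes had medians of 0.24, -0.19 and -0.19. The part of these lists in the members' values was not tested. Here 0 osteoblast genes and 0% of all genes passed limma's adjusted threshold, with 2714 genes at an unadjusted p under 0.05. Leaving out WT replicate 1, the shallowest library, gave 665 genes and 7 of the osteoblast list.

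The choice of the members did not rest on the libraries of the Tet mice, so a test was made there. Normalized counts, which are not per length and compare only between libraries, were 16999, 13645 and 22343 for Bglap in Ctrl. They were 22801, 22215 and 56594 in Tet1 cKO, 18474, 5883 and 36556 in Tet2 cKO, and 4787, 13124 and 6672 in Tet1/2 cKO. The double knockout libraries all lay under the Ctrl libraries, by a small gap, and the single knockouts overlapped them. The means were 17663 ± 4387, 33870 ± 19681, 20304 ± 15418 and 8195 ± 4372 in the order given (SD, n = 3 each).

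For Bglap2 the normalized counts were 18882, 12898 and 22704 in Ctrl, 20169, 23644 and 58786 in Tet1 cKO, and 22182, 6832 and 45915 in Tet2 cKO. In Tet1/2 cKO they were 3977, 13616 and 6928, so that 1 library overlapped Ctrl. For Ifitm5 they were 1089, 1259 and 1451 in Ctrl, 1388, 1084 and 3105 in Tet1 cKO, and 1343, 400 and 1916 in Tet2 cKO. In Tet1/2 cKO they were 393, 863 and 467, all under Ctrl. Tet1 cKO replicate 3 was the highest library for every member and Tet1/2 cKO replicate 1 the lowest.

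**Figure D3:**
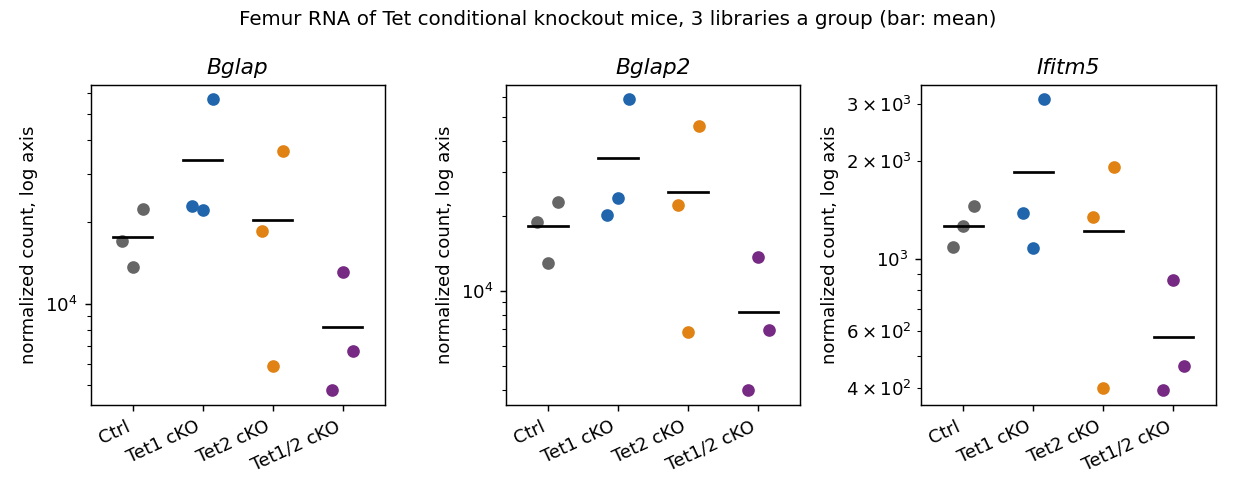
Normalized counts (log axis) of Bglap, Bglap2 and Ifitm5 in femurs of Ctrl and of the Tet1, Tet2 and Tet1/2 cKO mice, with a point for each of 3 libraries and a bar at the mean. The Tet1/2 cKO means of 8195, 8174 and 574 lie under the Ctrl means of 17663, 18161 and 1266, with wide spread in Tet2 cKO.

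No member passed the test in any Tet contrast. In Tet1/2 cKO against Ctrl the log2 difference of Bglap was -1.21 (SE 0.62, 95% interval -2.57 to 0.15, limma adjusted p = 0.723). That of Bglap2 was -1.29 (95% interval -2.76 to 0.18, limma adjusted p = 0.723) and that of Ifitm5 -1.22 (95% interval -2.43 to 0.00036, limma adjusted p = 0.723). The unadjusted p-values of the limma fit were 0.0760, 0.0789 and 0.0501. Lower values without overlap, as in Bglap and Ifitm5, occurred in 10.0% of 16780 genes. Limma called 0% of genes in this contrast, with 847 at an unadjusted p under 0.05, while edgeR called 0 and DESeq2 11 on the reads recovered for 11 libraries (without Tet1 cKO replicate 3). These intervals include both no difference and a loss of more than the size of the mean difference, so the data do not show that the double knockout left the members as they were.

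In Tet1 cKO the differences were 0.82 for Bglap, 0.78 for Bglap2 and 0.41 for Ifitm5, with 95% intervals of -0.54 to 2.18, -0.69 to 2.25 and -0.81 to 1.63. In Tet2 cKO they were -0.13, 0.11 and -0.32, with intervals of -1.49 to 1.23, -1.36 to 1.58 and -1.53 to 0.90. The limma adjusted p was 1.00 for each of these 6, where 0.0119% of genes were called in Tet1 cKO and 0.0119% in Tet2 cKO. The direction rested on single libraries: without Tet1 cKO replicate 3, Ifitm5 was at -0.037 in Tet1 cKO, and without Tet2 cKO replicate 2, Bglap was at 0.59 and Ifitm5 at 0.35 in Tet2 cKO. Bglap was at 0.057 without Ctrl replicate 3, and Bglap2 at -0.12 without Ctrl replicate 2 and -0.52 without Tet2 cKO replicate 3.

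Across all 12 Tet libraries the members varied together. Pearson's r of their log2 normalized counts was 0.989 for Bglap and Bglap2 (Spearman's rho 0.944), 0.976 for Bglap and Ifitm5 (rho 0.944) and 0.955 for Bglap2 and Ifitm5 (rho 0.860). The adjusted p of Pearson's r was 3e-05 for each of the 3 pairs in a two-sided permutation test with 100000 resamples, of which 1e-05 is the smallest possible unadjusted value, and that of rho was 7.5e-05, 7.5e-05 and 0.00064. Without the 2 libraries farthest from the median, r was 0.983, 0.953 and 0.920. Centred on the group means, r was 0.992, 0.969 and 0.941, so the relation held within groups as well. Values of a pair come from the same library and share its depth and tissue content, and Bglap and Bglap2 may share reads. This variation was not particular to the members. By the root mean square difference described below, Serpinf1, Sparc, Col1a2 and Col1a1 (0.130 to 0.226) were nearer to Bglap than Ifitm5 was (0.250).

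No gene of the osteoblast list passed the test in Tet1/2 cKO against Ctrl, with 0 of 16 called, 13 with lower values and a median of -0.96. Its 2 most abundant genes, Col1a2 and Col1a1, the chains of type I collagen, were at -1.13 (limma adjusted p = 0.733) and -1.30 (limma adjusted p = 0.723). Relative to the list mean, Ifitm5 lay at -2.80 ± 0.18 in Tet1/2 cKO and -2.30 ± 0.13 in Ctrl (SD, n = 3 each), ranges of -2.95 to -2.60 and -2.44 to -2.21 that did not overlap, as was found for 1.07% of 16780 genes in this direction. Bglap lay at 0.98 ± 0.30 against 1.49 ± 0.24 and Bglap2 at 0.93 ± 0.45 against 1.52 ± 0.32, with overlap in both. Of the transcription factors 0 of 14 were called, with a median of -0.41, and of the vitamin K list 0 of 9, with a median of -0.34. The other Ifitm genes and Fkbp11 stood higher rather than lower, with 6 of 7 above Ctrl, a median of 0.35 and 0 called. Muscle and chondrocyte genes were lower by a median of 3.82 and 2.44 log2 units. The muscle sum was 5973, 3522 and 439706 normalized counts in the Tet1/2 cKO libraries. Only replicate 3 lay within the Ctrl range of 120412 to 518239. Adipocyte, osteoclast, endothelial and B-cell precursor genes had medians of -1.06, -0.92, -0.57 and -0.42. Neutrophil and erythroid genes were higher, with medians of 0.77 and 0.27. In each of these lists 0 genes were called. The part of these lists in the members' values was not tested.

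**Figure D4:**
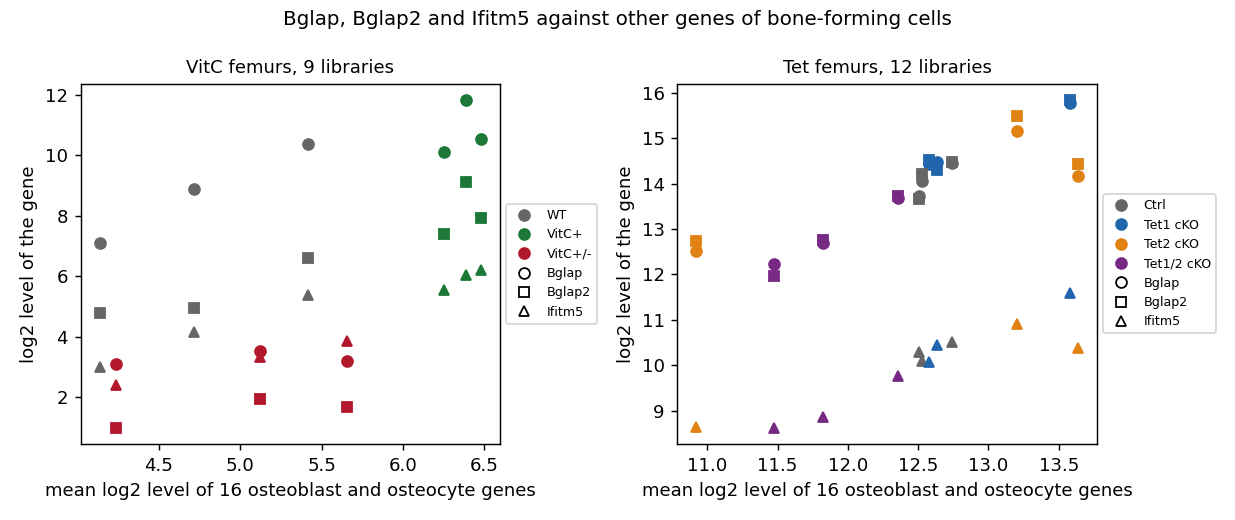
Log2 level of each member (circle Bglap, square Bglap2, triangle Ifitm5) against the mean log2 level of 16 osteoblast and osteocyte genes, by library and group, in the VitC (left) and Tet (right) femurs. In the VitC femurs the VitC+/- points of Bglap and Bglap2 lie under those of WT at similar list levels, while in the Tet femurs the members tend to be higher in libraries with a higher list mean, with the lowest and the highest Tet2 cKO libraries off this trend.

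The genes whose pattern was most like each member were named by the root mean square difference of centred log2 values. In the 9 VitC libraries, among 5177 genes, Bglap2 was nearest to Bglap at 0.791 and Bglap nearest to Bglap2, followed by Cpz, a carboxypeptidase, at 1.41 and 0.833. Col11a2, a collagen of cartilage, came next for both. Nearest to Ifitm5 were Pcsk6 at 0.200, Cpe at 0.255 and Kazald1 at 0.264. The members' own spreads were 3.31, 2.80 and 1.32 on this scale. In the 12 Tet libraries, among 16111 genes, Serpinf1 was nearest to Bglap at 0.130 and Bglap2 followed at 0.166, with Sparc, Col1a2 and Col1a1 after them. Creb3l1 at 0.139 and Kazald1 at 0.146 were nearest to Ifitm5. Kazald1 was the gene among the nearest 5 to Ifitm5 in both experiments.

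Some genes next to the members were called as well. Pmf1, the neighbour upstream of Bglap, had a difference of 0.36 in VitC+/- against VitC+ (limma adjusted p = 0.154). Within 100 kb of Ifitm5, 2 of 10 tested genes fell, Ifitm1 as given and Athl1, named Pgghg in the Tet table, by 1.18 (limma adjusted p = 0.00232). Ifitm2 between them had a difference of -0.0032 (limma adjusted p = 0.989). Against WT, 4 of the 10 neighbours of Ifitm5 were called lower in VitC+/- and 1 higher. The lower ones were Athl1, Ifitm1, Ifitm3 and Ifitm6, with differences from -0.62 for Ifitm3 to -1.87 for Ifitm6, and Bet1l rose by 0.48 (limma adjusted p = 0.0174). Near Bglap, Sema4a fell by 1.47 against WT (limma adjusted p = 0.0115). In the Tet contrasts 0 of 10 and 0 of 11 neighbours were called.

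The peaks of 5hmC have no replicate values, since each group has 1 list from pooled samples, and no test was made. Around Bglap and Bglap2 (chr3:88347736-88414466) VitC+ femurs had 16 peaks over 6701 bp, with a median fold enrichment of 4.70, and VitC+/- femurs 10 peaks over 3101 bp, with a median of 5.44. All 10 of the latter overlapped a VitC+ peak, and 9 of the 16 overlapped a VitC+/- peak. The log2 ratio of covered length, with 1000 bp added to each, was -0.91, and 0.819% of the genes with peaks had a lower ratio, with a median of -0.10. Around Ifitm5 (chr7:140918958-140980243) there were 9 peaks over 3389 bp and 7 over 3090 bp, a ratio of -0.10 that 50.2% of genes were below and that turned to 0.18 for peaks at or above the median fold enrichment of their list. The 2 lists as a whole covered 175 Mb each.

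Neither list had a peak over the body of Bglap, Bglap2 or Ifitm5. The strongest VitC+ peak of the Bglap window lay upstream at chr3:88387144-88388276, 1133 bp long with a fold of 8.44, centred at -3244 bp from the start site. In VitC+/- 2 narrow peaks of 219 and 338 bp, with folds of 3.96 and 5.56, lay in the same place. Nearer to Bglap, at -2002 bp, a VitC+ peak of 584 bp and a fold of 4.80 (chr3:88386176-88386759) had no counterpart in VitC+/-. The VitC+ peak nearest to Ifitm5 lay at -7027 bp in an intron of Ifitm2, with a fold of 5.21 (chr7:140957151-140957389), and was not in the VitC+/- list. The strongest lay 10012 bp downstream, with a fold of 7.43, and VitC+/- femurs had a peak there with a fold of 3.45.

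The central part of the peak at -2002 bp of Bglap and the whole peak in Ifitm2 are shown, since they are the nearest upstream ones found in VitC+ and not in VitC+/-. Capitals mark CpG sites, of which there are 2 and 4.

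Peak near Bglap, chr3:88386318-88386617, GRCm38.p6, reverse strand: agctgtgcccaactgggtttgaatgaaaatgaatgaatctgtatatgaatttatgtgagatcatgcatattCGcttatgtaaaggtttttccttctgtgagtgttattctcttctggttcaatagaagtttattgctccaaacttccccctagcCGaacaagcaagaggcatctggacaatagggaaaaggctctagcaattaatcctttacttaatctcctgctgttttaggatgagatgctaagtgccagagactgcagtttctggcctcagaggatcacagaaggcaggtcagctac
Peak near Ifitm5, chr7:140957151-140957389, GRCm38.p6, reverse strand: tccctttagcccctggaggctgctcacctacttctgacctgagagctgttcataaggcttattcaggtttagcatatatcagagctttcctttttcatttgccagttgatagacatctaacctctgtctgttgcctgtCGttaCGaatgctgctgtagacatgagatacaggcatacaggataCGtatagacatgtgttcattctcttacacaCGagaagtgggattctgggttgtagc

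In the Tet femurs the lists differed in size as a whole, with 273 Mb covered in Ctrl and 123 Mb in Tet1/2 cKO. Near Bglap and Bglap2, Ctrl had 25 peaks over 21345 bp with a median fold of 3.29 and Tet1/2 cKO 20 peaks over 10967 bp with a median of 3.88, a log2 ratio of -0.90 that 67.7% of genes were below. Near Ifitm5 it was 15 peaks over 20579 bp and 13 over 12750 bp, with medians of 4.16 and 4.15 and a ratio of -0.65 that 83.1% were below. The median of all genes was -1.12, so both loci lay above it. A weak Ctrl peak in the exon of Bglap (chr3:88383445-88383905, fold 2.49) was not in Tet1/2 cKO, while that of Bglap2 (fold 3.21) was. Over Ifitm5 and its neighbour Pgghg, Ctrl had a peak of 5842 bp with a fold of 9.46 (chr7:140943750-140949591), and Tet1/2 cKO had 3 shorter ones in its place, the longest of 2964 bp. A second Ctrl peak at the Ifitm5 start site (chr7:140949960-140950404, fold 2.35) was absent in Tet1/2 cKO.

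MC3T3-E1 cells had more peaks of 5hmC near the members with VitC than without. Near Bglap and Bglap2 there were 24 peaks over 13639 bp in VitC+ and 7 over 4882 bp in VitC-, with median folds of 5.74 and 5.41. Near Ifitm5 there were 21 peaks over 15886 bp and 9 over 4542 bp, with medians of 5.05 and 4.23. The log2 ratios of VitC- to VitC+ were -1.32 and -1.61, and 20.5% and 11.2% of genes were below them, against a median of -0.43. VitC+ cells had peaks over Bglap2 (chr3:88377732-88378302, fold 11.0), Bglap (chr3:88382804-88384024, fold 6.89) and in 2 places over Ifitm5 (chr7:140948923-140949313, fold 4.59, and chr7:140949727-140950983, fold 4.13). VitC- cells had none over Bglap2 or Ifitm5, and 1 at the start of Bglap (chr3:88384449-88385463, fold 6.12), which takes in the promoter printed above. The VitC+ peak that overlapped it in part, further upstream of Bglap (chr3:88385167-88385675), had a fold of 11.5.

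Histone peaks were few near the members. No H3K27me3 peak lay near Bglap and Bglap2 in either list. Near Ifitm5 there were 3 peaks over 10400 bp in VitC- and 1 over 2831 bp in VitC+, with midpoints 15616 to 30642 bp downstream of the start site, over Nlrp6 or between genes. The log2 ratio was 1.57, with 87.8% of genes below it and a median of 0.66 for all genes. H3K9me3 had 1 peak near Bglap and Bglap2 in each list, which lay over Bglap3 and not over Bglap or Bglap2. Their midpoints were 13420 bp (VitC-) and 14416 bp (VitC+) downstream of the Bglap start site. The lengths were 3688 bp in VitC- (fold 3.72) and 1843 bp in VitC+ (fold 4.51). That ratio was 0.72, with 60.7% of genes below it and a median of 0.52, but -1.51 for peaks with a -log10 q of at least 5 and 0 by number of peaks. Ifitm5 had no H3K9me3 peak nearby. The lists of these marks reach down to a -log10 q of 1.01, and the peaks near the members lay between 1.41 and 5.42.

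**Figure D5:**
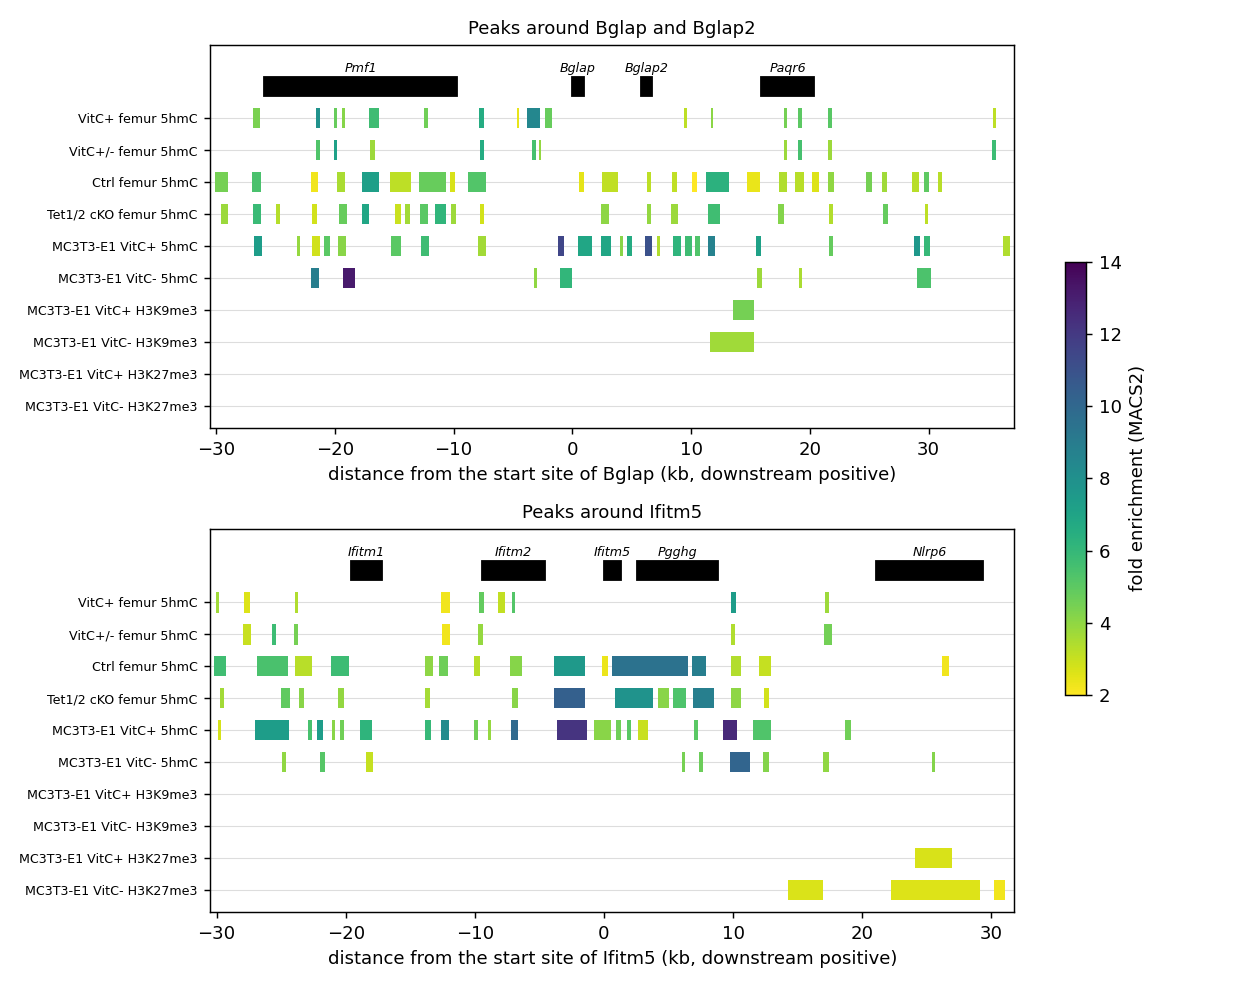
Peaks of the 10 lists around Bglap and Bglap2 (top) and Ifitm5 (bottom) by distance from the start site in kb, coloured by fold enrichment, with the named genes as black boxes. In MC3T3-E1 VitC+ cells peaks of 5hmC overlap part of Bglap, of Bglap2 and of Ifitm5, and in VitC- cells a peak covers the start of Bglap. VitC+ femurs have 16 peaks around Bglap and Bglap2 and VitC+/- femurs 10.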

How the data were processed

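RNA-seq of femurs and peak lists of femurs and MC3T3-E1 cells were used. Per the labels, STAR 2.6.0b-1 aligned the reads to mm10. For the VitC femurs the authors deposited RPKM per library. The methods name cufflinks for FPKM, without saying whether it also gave these RPKM. For the Tet femurs the authors deposited a normalized count signal, which is featureCounts 1.6.3 gene counts over DESeq2 size factors. MACS2, run by the authors after BWA 0.7.15.1, gave each peak a fold ratio over local background and a -log10 q, which were deposited. The deposited pileup signal of MC3T3-E1 5hmC peaks was not used. Pooled replicates gave 1 list of 5hmC peaks per group. For the histone ChIP the labels state 28 days of culture and the methods 7 days.

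The members and lists were chosen with earlier results of these data known. Named genes were the members, up to 4 called or otherwise the 2 most abundant genes per list, neighbours within 100 kb and the 5 most alike genes with a mean of at least 10. RPKM were scaled by median of ratios, and 69 of 23358 rows with shared names were dropped. The filter kept genes that reached RPKM 1, or normalized count 10, in 3 libraries, and all members passed. All libraries of an experiment entered 1 limma-trend fit of log2 values, with a pseudocount of 0.5 (RPKM) or 1 (normalized counts). Benjamini-Hochberg adjusted p under 0.05 counted as called. P-values measure the spread between animals, which the methods call independent. edgeR and DESeq2 ran on reads recovered from normalized counts (100% whole within 0.01), without Tet1 cKO replicate 3, whose divisor of 1.00 is too close to 1 for the recovery to be checked. Read numbers of the VitC libraries are estimates, from low RPKM values of which 86.3 to 88.2% lay within 0.1 of whole reads. Scripts were tested on simulated data. Peaks with a midpoint within 30 kb counted as near and any overlap as shared. Alternatives changed scaling, pseudocount, filter, libraries in the fit, replicate block, test, window, peak threshold and measure. Software was limma 3.58.1, edgeR 4.0.16 and DESeq2 1.42.0 in R 4.3.3, with numpy 2.4.6 and matplotlib 3.10.9 in Python 3.11.15, and samtools 1.23.1. Some genes of the lists and loci are not reported here by name.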

Additional observations from a re-analysis of the deposited data

How the results depend on the processing

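The 9 VitC differences of the members moved by less than the spread between replicates in all 117 alternatives, although Ifitm5 against WT ran from -1.57 to -0.38 without 1 library. Of 117 alternatives of the 9 Tet differences, 10 changed direction and none passed the threshold, with adjusted p from 0.461 to 0.998 in Tet1/2 cKO. On recovered reads Ifitm5 in Tet1 cKO was at -0.062 by edgeR and -0.037 by DESeq2, and Bglap in Tet2 cKO at 0.18 and 0.20. Without 1 library in turn, Ifitm5 ranged from -0.037 (without Tet1 cKO replicate 3) to 0.72 in Tet1 cKO. In Tet2 cKO Bglap ranged from -0.73 to 0.59, with 0.057 without Ctrl replicate 3, Bglap2 from -0.52 to 0.85, with -0.12 without Ctrl replicate 2, and Ifitm5 from -0.78 to 0.35. The cause was not tested.

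Genes called in VitC+/- against VitC+ were 877 without scaling and 489 to 1313 without 1 library, against 1692, and against WT 2292 to 4043 without 1 library, against 3901. In WT against VitC+, where limma called 0, they were 17 with upper quartile scaling, 5 with a pseudocount of 0.1, 8 with only these groups fitted and 0 to 665 without 1 library. Tet1 cKO, with 2 called, had 0 by edgeR, 13 by DESeq2 and 0 to 4 without 1 library. Tet2 cKO, also with 2, had 1 by edgeR, 15 by DESeq2, 0 with only these groups fitted and 0 to 4 without 1 library, and Tet1/2 cKO 11 by DESeq2 against 0.

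Of the lists in VitC+/- against VitC+, no filter gave 5 osteoblast, 1 vitamin K, 2 osteoclast and 0 adipocyte genes, against 8, 2, 4 and 1. The vitamin K count was also 1 without scaling and with a pseudocount of 0.1, and the adipocyte count 0 with only these groups fitted. Without 1 library the counts were 1 to 9 osteoblast, 1 to 5 transcription factor, 1 to 3 vitamin K, 0 to 2 Ifitm family, 3 to 8 B-cell, 1 to 4 neutrophil, 0 to 1 erythroid, 1 to 6 osteoclast, 0 to 1 adipocyte and 1 to 2 chondrocyte genes. Against WT, osteoblast genes were 2 with no filter and 1 to 5 without 1 library, and vitamin K genes 1 to 5. In WT against VitC+, 1 transcription factor was called with upper quartile scaling, with a pseudocount of 0.1 and with only these groups fitted. Without 1 library 0 to 7 osteoblast, 0 to 4 transcription factor and 0 to 1 vitamin K genes were called.

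Same-numbered libraries correlated from -0.19 to 0.47 (VitC) and -0.57 to 0.53 (Tet) in their deviations from group means. Tet1 cKO and Tet2 cKO correlated at 0.53, 0.15 and 0.52. No groups compared here did so above 0.1 in every pair, and the main fit used no pairing. So few pairs cannot exclude a batch shared by same-numbered samples. With a replicate block, 780 genes were called in WT against VitC+, with 12 osteoblast, 6 transcription factor and 1 vitamin K genes, 6 transcription factor and 3 Ifitm family genes in VitC+/- against VitC+, and 0 genes in Tet1 cKO and 0 in Tet2 cKO. Among peaks, keeping those of 5hmC at or above their list's median fold turned the length ratio near Ifitm5 in VitC+/- femurs to 0.18, and a -log10 q of at least 5 that of H3K9me3 near Bglap to -1.51. By number of peaks the ratio near Bglap was -0.31 in Tet1/2 cKO and 0 for H3K9me3. Depth limits the VitC+/- values of Bglap2, which rest on 23 to 64 reads.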
